A study of Mus musculus with 64 samples.

Results

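Cck, Vip, Gal, Nts, Tac1, Tac2 and Adcyap1 encode neuropeptide precursors of the cortex and hypothalamus, and their mRNA was measured by bulk RNA sequencing of mouse brain. These 7 genes were the rows of the count table whose gene identifier corresponds to 1 of the 7 symbols, out of 55401 genes listed, and all 7 were among the 18971 genes tested after low counts were filtered out. Gal passed that filter only because of its hypothalamic counts, and it would not have passed in the PFC alone.

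The study asked how a single dose of psilocybin, a serotonergic psychedelic, alters transcription in the prefrontal cortex (PFC, labelled as frontal cortex) and in the whole hypothalamus. Each of 32 mice gave both regions, so that 64 samples formed 8 groups of 8, by region, treatment and time of harvest. The animals were group-housed, chow-fed male C57BL/6J mice, 10 weeks old at the start, each given psilocybin (3 mg/kg) or isotonic saline once by the intraperitoneal route and killed 3 h or 4 weeks later. All were sham-injected with saline on the 3 preceding days and were killed in the morning. The controls therefore carried the same handling as the treated mice, and no group had a genetic alteration. Mice harvested at 4 weeks were also 4 weeks older than those harvested at 3 h, and these cannot be told apart. Replicate numbers are cage numbers, each cage holding 1 mouse of every group. RNA of each region was extracted in pools of its own, by cages 1 to 4 and cages 5 to 8, so region and extraction pool cannot be told apart.

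Neuropeptides are cut from larger precursors by prohormone convertases in the secretory granule, released from dense-core vesicles, and act through G protein-coupled receptors before peptidases degrade them. Cck encodes cholecystokinin, a satiety peptide that is also made by many cortical neurons. Vip encodes vasoactive intestinal peptide, which marks a class of cortical interneurons that inhibit other interneurons and which couples clock neurons of the suprachiasmatic nucleus. Adcyap1 encodes PACAP, a relative of VIP made by ventromedial and mammillary neurons among others. Gal encodes galanin and Nts neurotensin, peptides of feeding, arousal and dopamine circuits. Tac1 encodes the tachykinins substance P and neurokinin A and is abundant in striatal projection neurons of the direct pathway, while Tac2 encodes neurokinin B, known from arcuate kisspeptin neurons and the medial habenula.

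Samples with almost no reads were left out, hypothalamus saline 3 h replicate 2 (211111 counts) and PFC psilocybin 4 weeks replicate 3 (200066 counts), which left 62 libraries of 8061030 to 70361800 counts (median 18288000). The regions matched their markers. Slc17a7, the vesicular glutamate transporter of cortical excitatory neurons, was at 1059 to 1575 CPM (a gene's counts per 1000000 counts of a library, after TMM scaling) in the PFC and 8.87 to 102 CPM in the hypothalamus. Avp, the vasopressin gene, was at 56.9 to 1121 CPM in the hypothalamus and at most 2.76 CPM in the PFC. The study also left out a sample rich in wound healing and immune genes, which the sources used here do not name, so no library was left out for this. PFC psilocybin 3 h replicate 5 was the highest in such genes by their mean log2 level, 1.76 log2 units above the median of its region, and no call of a member changed without it. By summed CPM the highest was a hypothalamus saline 4 weeks library, at 206 CPM against a region median of 60.5 CPM. Some libraries stood apart in the members themselves. Hypothalamus psilocybin 4 weeks replicate 5 was the highest of its region in Cck, Gal and Tac2, and its summed level of paraventricular and lateral hypothalamic markers was 2629 CPM, against 356 to 839 CPM in the other hypothalamic libraries. PFC saline 4 weeks replicates 3, 6 and 7 and PFC psilocybin 4 weeks replicate 6 were the highest of the PFC in Gal or Nts. In bulk tissue, fewer cells of a type and less RNA per cell cannot be told apart.

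Cck and Vip were the members with more mRNA in the PFC. Cck (ENSMUSG00000032532.7, GRCm38 chromosome 9, 121489824 to 121495639, minus strand) was at 238 ± 43.0 CPM in the PFC and 34.7 ± 19.4 CPM in the hypothalamus (SD, n = 31 libraries each). In the PFC, its lowest, median and highest library were at 212, 247 and 333 CPM after saline and 197, 242 and 381 CPM after psilocybin at 3 h, and at 172, 225 and 270 CPM after saline and 169, 216 and 258 CPM after psilocybin at 4 weeks. The corresponding hypothalamic values were 21.3, 30.4 and 41.0 CPM, 16.8, 38.0 and 47.6 CPM, 20.7, 31.8 and 37.4 CPM, and 16, 28.5 and 130 CPM. The 4 ranges of a region overlapped, and no hypothalamic library reached the lowest PFC library. Vip (ENSMUSG00000019772.5, chromosome 10, 5639218 to 5647617, plus strand) was at 80.3 ± 20.6 CPM in the PFC and 13.3 ± 5.04 CPM in the hypothalamus (SD, n = 31 each). Its PFC libraries lay at 64.8 to 124 CPM (median 81.3) after saline and 69.1 to 123 CPM (median 101) after psilocybin at 3 h. At 4 weeks they lay at 46.6 to 85.3 CPM (median 66.8) and 52.1 to 91.5 CPM (median 64.1). The 3 h medians were thus the higher ones in the PFC under both treatments, with overlapping ranges. Hypothalamic Vip varied more, from 5.62 to 17.6 CPM (median 10.1) after saline and 6.87 to 24.1 CPM (median 11.8) after psilocybin at 3 h, and from 8.45 to 22.4 CPM (median 12.9) and 7.10 to 19.7 CPM (median 12.1) at 4 weeks.

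Gal and Nts were hypothalamic genes in this dissection. Gal (ENSMUSG00000024907.7, chromosome 19, 3409915 to 3414544, minus strand) was at 30.5 ± 9.22 CPM in the hypothalamus (SD, n = 31), in groups of 24.4 to 46.1 CPM (saline 3 h, median 33.6), 22.9 to 38.5 CPM (psilocybin 3 h, median 29.2), 21.9 to 39.6 CPM (saline 4 weeks, median 25.3) and 23.4 to 67.4 CPM (psilocybin 4 weeks, median 26.1). In the PFC it was close to the limit of counting. The PFC libraries held a median of 2 Gal reads, 7 of 31 held none, and only PFC saline 4 weeks replicate 3 exceeded 1 CPM, with 296 reads or 4.24 CPM. Nts (ENSMUSG00000019890.4, chromosome 10, 102481756 to 102490486, minus strand) was at 29.2 ± 4.99 CPM in the hypothalamus and 1.57 ± 3.07 CPM in the PFC (SD, n = 31 each). Its hypothalamic groups spanned 26.1 to 35.0 CPM (median 29.3) and 24.7 to 36.5 CPM (median 29.6) after saline and psilocybin at 3 h, and 20.9 to 38.9 CPM (median 27) and 18.8 to 35.8 CPM (median 29.7) at 4 weeks. All 4 medians lay close together. In the PFC, the 3 h libraries lay at 0 to 0.948 CPM (median 0.550) after saline and 0.140 to 1.19 CPM (median 0.379) after psilocybin. At 4 weeks the medians were 0.636 and 0.679 CPM, but the ranges ran to 12.3 CPM after saline and 12.1 CPM after psilocybin. The PFC groups at 4 weeks thus differed from those at 3 h mainly in a few high libraries.

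The tachykinin genes and Adcyap1 were read in both regions and were higher in the hypothalamus. Tac1 (ENSMUSG00000061762.12, chromosome 6, 7554879 to 7565834, plus strand) was at 55.6 ± 14.5 CPM in the hypothalamus and 19.9 ± 17.2 CPM in the PFC (SD, n = 31 each). Its PFC libraries were skewed. Their medians of 11.2 and 12.5 CPM (saline and psilocybin, 3 h) and 13.7 and 13.2 CPM (4 weeks) lay near the minima of 9.25, 8.95, 11 and 11.8 CPM, and the maxima were 26.6, 37.4, 89.3 and 63.1 CPM. Hypothalamic Tac1 ran from 43.8 to 74.2 CPM (median 66.8), 37.4 to 67.5 CPM (median 49.1), 36.7 to 76.7 CPM (median 46.0) and 40.5 to 93.2 CPM (median 58.5) in the same order. Tac2 (ENSMUSG00000025400.11, chromosome 10, 127724478 to 127731767, plus strand) was at 29.5 ± 17.2 CPM in the hypothalamus and 9.42 ± 2.34 CPM in the PFC (SD, n = 31 each). In the PFC it lay at 8.39 to 13.3 CPM (median 10.8) and 6.00 to 14 CPM (median 10.8) at 3 h, and at 6.47 to 12.8 CPM (median 7.92) and 6.89 to 8.25 CPM (median 7.58) at 4 weeks. In the hypothalamus it lay at 16.3 to 33.6 CPM (median 24.1), 23.1 to 42.8 CPM (median 26.2), 18.2 to 42.9 CPM (median 23.9) and 22.8 to 116 CPM (median 25.3). The widest hypothalamic range of Tac2 came from 1 library, psilocybin 4 weeks replicate 5. Adcyap1 (ENSMUSG00000024256.7, chromosome 17, 93199017 to 93206537, plus strand) was at 61.6 ± 11.3 CPM in the hypothalamus and 26.7 ± 7.89 CPM in the PFC (SD, n = 31 each). Its PFC medians were 23.8 CPM (13.8 to 33.6) and 24.6 CPM (14.2 to 32.9) at 3 h and 30.6 CPM (16.1 to 47.6) and 27.3 CPM (17.1 to 36.3) at 4 weeks. Its hypothalamic medians were 66.7 CPM (58.1 to 76.4) and 59.0 CPM (49.9 to 84.7) at 3 h and 56.3 CPM (42.7 to 70.1) and 54.9 CPM (43.6 to 81.1) at 4 weeks. No member overlaps another annotated gene.

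**Figure D1:**
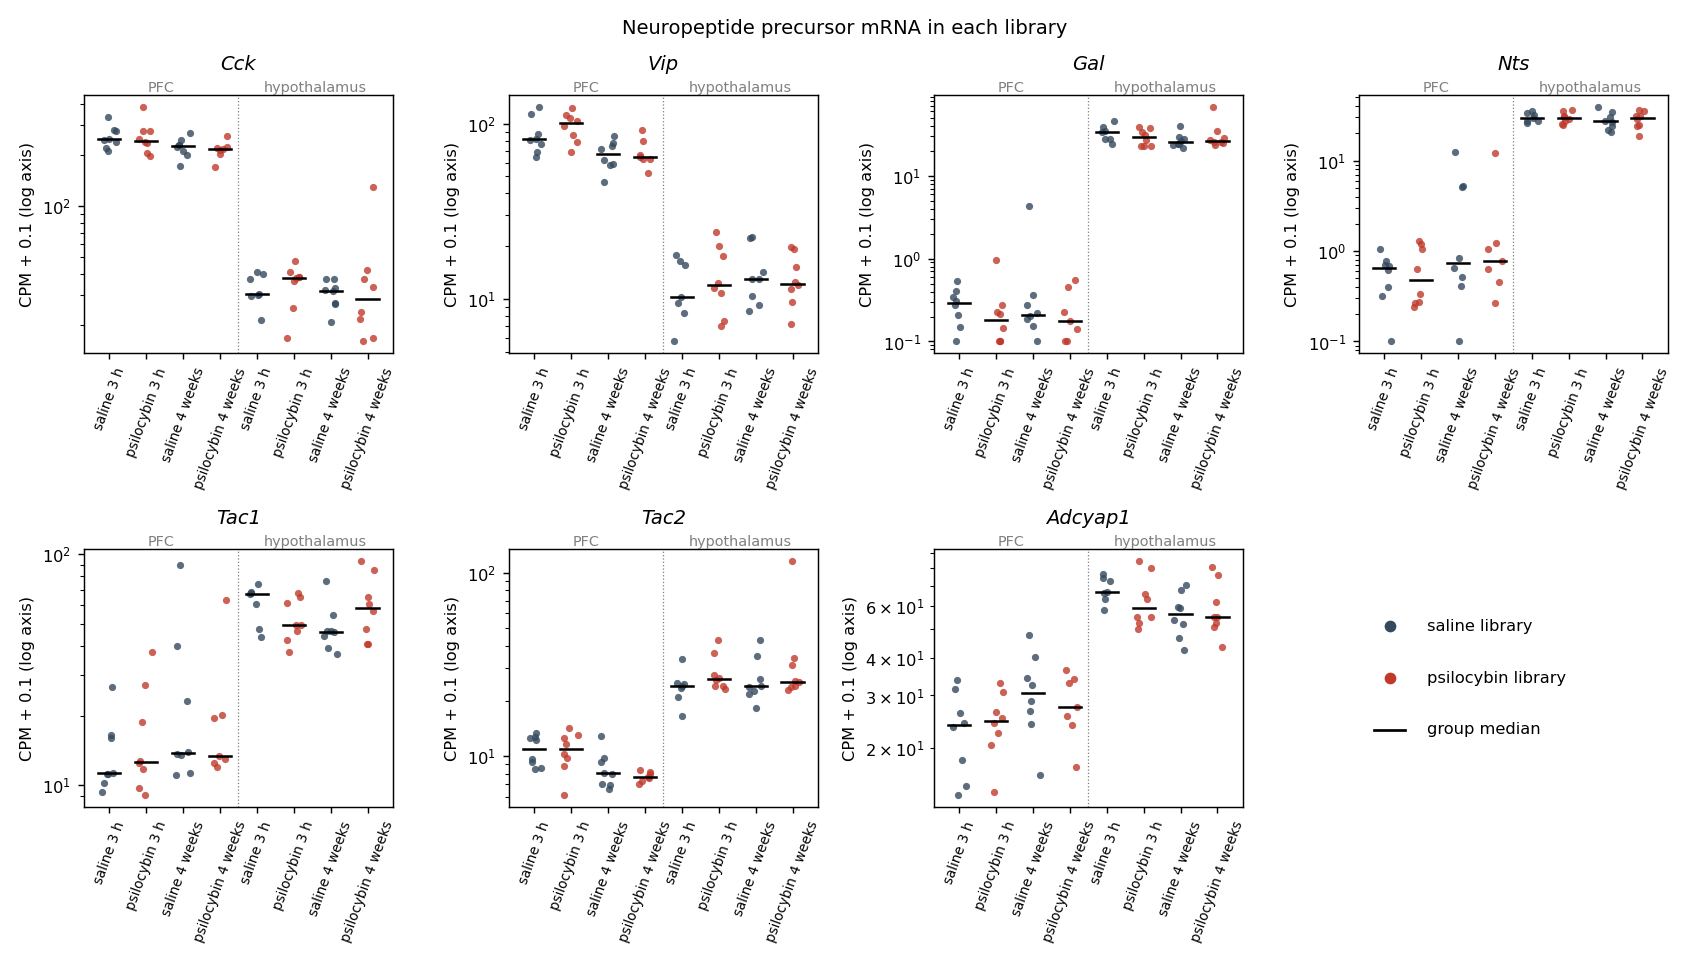
Level of each neuropeptide gene in every library, as CPM plus 0.1 on a log axis, by treatment and time with the PFC groups left and the hypothalamic groups right of the dotted line. Each point is 1 library and each bar a group median. The regions separate for Cck, Vip, Gal, Nts and Tac2, and isolated high libraries stand out for Nts and Tac1 in the PFC at 4 weeks (up to 12.3 and 89.3 CPM).

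Levels of different genes can be compared only per length of transcript, and on that scale the order of the members changed with the region. In the PFC the mean was 183 CPM per kb of exon for Cck, 23.6 for Vip, 7.07 for Adcyap1, 6.84 for Tac2, 5.86 for Tac1, 1.26 for Nts and 0.366 for Gal. In the hypothalamus the order was Gal (38.7 CPM per kb), Cck (26.6), Nts (23.4), Tac2 (21.4), Tac1 (16.4), Adcyap1 (16.3) and Vip (3.90). When the 8 groups were ranked by their mean for a given gene, neighbouring groups differed by more than the larger SD only at the step between the PFC and the hypothalamus, and for Tac1 at no step. Between-library variation within a group was lowest for Tac2 in the PFC after psilocybin at 4 weeks (coefficient of variation 6.36%) and highest for Gal in the PFC after saline at 4 weeks (232%).

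The sequences just upstream of the genes are shown for Tac1 and Nts, whose levels rose and fell together across PFC libraries, and for Gal and Vip, which did so across hypothalamic libraries (both relations are given further on). They are the RefSeq promoter windows of GRCm38.p6, from 250 bases before to 50 bases after the annotated start, read 5′ to 3′ on the gene's strand, at chr6:7554811-7555110 (plus strand), chr10:102490369-102490668 (minus strand), chr19:3414495-3414794 (minus strand) and chr10:5638968-5639267 (plus strand). Capitals mark TGACG or its reverse complement CGTCA, the core letters of the cAMP response element through which CREB acts on many neuropeptide genes.
Tac1: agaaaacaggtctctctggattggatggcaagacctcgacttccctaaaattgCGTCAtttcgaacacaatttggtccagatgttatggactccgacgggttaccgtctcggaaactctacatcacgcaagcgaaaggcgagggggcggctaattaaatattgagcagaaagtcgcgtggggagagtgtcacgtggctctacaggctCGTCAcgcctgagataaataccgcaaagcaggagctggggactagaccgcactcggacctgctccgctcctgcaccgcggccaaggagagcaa
Nts: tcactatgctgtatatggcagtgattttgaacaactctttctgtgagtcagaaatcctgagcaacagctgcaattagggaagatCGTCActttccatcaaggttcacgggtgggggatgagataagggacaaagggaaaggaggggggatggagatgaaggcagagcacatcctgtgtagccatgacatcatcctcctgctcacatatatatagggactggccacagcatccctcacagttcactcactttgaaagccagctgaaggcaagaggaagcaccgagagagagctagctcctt
Gal: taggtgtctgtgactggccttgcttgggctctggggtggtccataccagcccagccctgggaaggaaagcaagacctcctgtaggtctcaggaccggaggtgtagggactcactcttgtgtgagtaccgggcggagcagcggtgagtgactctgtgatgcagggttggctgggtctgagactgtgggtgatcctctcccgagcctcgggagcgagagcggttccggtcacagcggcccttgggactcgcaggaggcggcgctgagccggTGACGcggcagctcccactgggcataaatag
Vip: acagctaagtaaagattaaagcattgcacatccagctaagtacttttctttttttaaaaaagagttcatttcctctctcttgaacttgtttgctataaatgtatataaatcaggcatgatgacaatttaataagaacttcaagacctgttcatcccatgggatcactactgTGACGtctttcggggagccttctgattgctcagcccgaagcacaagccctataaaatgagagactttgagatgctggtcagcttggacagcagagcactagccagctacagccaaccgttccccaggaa
Windows were found for 7 of 7 members, 8 windows in all because Adcyap1 has 2 start sites. The core letters on either strand occurred in the windows of 6 of 7 members, Tac2 being the exception, and in 20.8% of all 32851 promoter windows of the same length. They lay 197 and 43 bases upstream of the start in Tac1, 166 upstream in Nts, 79 upstream in Vip, 47 upstream in Cck and 19 downstream in Gal. A longer match, TGACGTC, occurred in Vip at the same place and in Adcyap1 at a single place, 91 and 242 bases upstream of its start sites, and in 3.21% of all windows. The full palindrome TGACGTCA was in none of the 8 windows and in 1.79% of all windows. The AP-1 element TGACTCA or its reverse complement TGAGTCA, to which Fos and Jun proteins bind, occurred 207 bases upstream in Nts and in 5.20% of all windows. These matches describe letters and not factor binding.

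Against the hypothalamus, the PFC had more Cck and Vip mRNA and less of the other members within each treatment and time. Cck was 8.15-fold higher in the PFC after saline at 3 h (log2 difference 3.03, standard error 0.24) and 7.17-fold after saline at 4 weeks. After psilocybin its ratio was 7.4-fold at 3 h and 5.69-fold at 4 weeks. Vip was 7.84-fold and 4.8-fold higher after saline and 7.39-fold and 5.27-fold higher after psilocybin. Nts was lower in the PFC by the widest margin among the members that passed the filter in both regions, 68.9-fold at 3 h and 9.47-fold at 4 weeks after saline, and 60.7-fold and 18.2-fold after psilocybin. The ratio of Nts at 4 weeks includes the few high PFC libraries. It was 16.6-fold after saline without PFC saline 4 weeks replicate 3 and 48.1-fold after psilocybin without PFC psilocybin 4 weeks replicate 6. Without both of these and saline 4 weeks replicate 6, the ratios were 33.3-fold and 50.5-fold. Tac1 was 4.32-fold and 2.03-fold lower in the PFC after saline and 3.00-fold and 3.13-fold lower after psilocybin. For Tac2 the PFC was 2.19-fold and 3.12-fold lower after saline and 2.65-fold and 4.84-fold lower after psilocybin. Adcyap1 was 3.01-fold and 1.86-fold lower after saline and 2.58-fold and 2.07-fold lower after psilocybin.

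All of these differences, and that of Gal, had an adjusted p under the threshold of 0.05 by the quasi-likelihood test of edgeR, with p-values adjusted over 18971 genes after Benjamini and Hochberg, the largest being 0.0047 for Tac1 after saline at 4 weeks. The call for Gal is a description, since its hypothalamic counts alone brought it into the test. In all 4 comparisons 2 members were higher and 5 lower. The background was high. After saline at 3 h, 54.9% of all genes tested differed between the regions (29.1% higher and 25.8% lower in the PFC), and at 4 weeks 55.2% (29.5% and 25.7%). After psilocybin these shares were 56.2% (29.5% and 26.8%) at 3 h and 58% (28.6% and 29.4%) at 4 weeks. Libraries of the regions did not overlap, except for Tac1 in both 4-week comparisons and for Adcyap1 after saline at 4 weeks. Over all genes tested, the libraries did not overlap for 27.8% and 29.1% after saline at 3 h and 4 weeks and for 26.4% and 22.4% after psilocybin. With the mouse as a block, 7 of 7 members were again called in each of the 4 comparisons, beside 53.3% and 54.9% of all genes after saline and 55.5% and 54.7% after psilocybin.

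Receptor genes were examined as partners of the peptides, and those described were chosen after their values were seen. Of 14 receptor genes, 13 were tested (not Tacr2, the neurokinin A receptor gene), and after saline at 3 h 3 were higher and 9 lower in the PFC, beside 29.1% of all genes higher and 25.8% lower. Cckar, Galr1 and Galr3 would not have passed the filter in the PFC alone, so their calls are descriptions. Cckbr, the main cholecystokinin receptor of the brain, was at 68.9 ± 10.8 CPM in the PFC and 7.88 ± 1.49 CPM in the hypothalamus (SD, n = 31 each), 8.21-fold higher in the PFC after saline at 3 h. Cckar, the other cholecystokinin receptor and the one tied to satiety, was at 0.0753 ± 0.191 CPM in the PFC and 7.48 ± 1.59 CPM in the hypothalamus. The receptors shared by VIP and PACAP divided in the same way, with Vipr1 at 33.9 ± 6.23 CPM in the PFC and 1.54 ± 0.752 CPM in the hypothalamus (23.2-fold higher after saline at 3 h), and Vipr2 at 1.07 ± 1.27 and 8.11 ± 1.64 CPM. Adcyap1r1, the PACAP-preferring receptor, was at 234 ± 23.8 CPM in the PFC and 438 ± 38.8 CPM in the hypothalamus. Sort1, the sorting receptor that binds neurotensin, was 2.60-fold higher in the PFC after saline at 3 h (680 ± 76.9 against 255 ± 32.0 CPM over all libraries). Ntsr1 was at 5.77 ± 1.63 and 18.4 ± 3.51 CPM. The tachykinin receptors Tacr1, for substance P, and Tacr3, for neurokinin B, were at 2.72 ± 2.33 and 0.864 ± 0.723 CPM in the PFC and at 19.1 ± 2.34 and 18.3 ± 3.42 CPM in the hypothalamus. Galr1 was at 0.168 ± 0.230 and 5.74 ± 1.17 CPM. For the ligands, the related genes Galp and Tac4 were too low to be tested.

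Genes that process and store neuropeptides differed between regions in both directions, 4 higher and 4 lower in the PFC of 12 after saline at 3 h, close to the 54.9% of all genes that differed. Scg2, the granule protein secretogranin II, was 3.80-fold lower in the PFC, while Pcsk2, a prohormone convertase, and Chgb, the granule protein chromogranin B, were 2.23-fold and 1.88-fold higher. Of 8 peptide-degrading enzymes, 3 were higher and 4 lower in the PFC after saline at 3 h, beside the same 54.9% of all genes, among them Ece2 (4.03-fold lower), Dpp4 (6.46-fold higher) and Nln, the neurolysin that cleaves neurotensin (1.30-fold higher).

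Psilocybin was compared with saline within each region and time. None of the 7 members was called in any of the 4 comparisons, beside 0.0105% of all genes in the PFC at 3 h (0.00527% higher and 0.00527% lower) and 0% in the other 3 comparisons. DESeq2 and limma-voom with sample weights also called 0 of 7 in each. Of all genes, DESeq2 called 0.0474% and 0.1% in the PFC and 0% and 0.0685% in the hypothalamus at 3 h and 4 weeks, and limma-voom 6.49% in the PFC at 3 h and 0% in the other 3 comparisons. At an unadjusted p under 0.05, edgeR counted 0 members in the PFC at 3 h, 1 in the PFC at 4 weeks, 0 in the hypothalamus at 3 h and 1 in the hypothalamus at 4 weeks, beside 7.23%, 2.4%, 1.78% and 9.61% of all genes. In every comparison the treated and control libraries of each member overlapped. The share over all genes was not computed for treatment, so this describes the members only.

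The intervals show which sizes of change the data leave possible. For Cck in the PFC at 3 h the log2 fold change had a 95% interval of -0.41 to 0.41, and at 4 weeks of -0.47 to 0.38. In the hypothalamus its estimates were 0.14 (-0.30 to 0.58) at 3 h and 0.29 (-0.15 to 0.72) at 4 weeks. The latter became -0.17 without psilocybin 4 weeks replicate 5, the library at 130 CPM. Vip was estimated at 0.16 (-0.20 to 0.52) in the PFC and 0.25 (-0.16 to 0.65) in the hypothalamus at 3 h, with all bounds at 4 weeks between -0.48 and 0.42. The narrowest intervals were those of Adcyap1. They were -0.18 to 0.35 and -0.37 to 0.18 in the PFC, and -0.40 to 0.13 and -0.20 to 0.32 in the hypothalamus, at 3 h and 4 weeks. For Tac1 the 4 intervals ran from -0.35 to 0.95, -0.95 to 0.36, -0.86 to 0.40 and -0.28 to 0.94 in the same order. Those of Nts in the PFC were wide, -1.52 to 1.85 at 3 h and -2.02 to 0.21 at 4 weeks, and PFC libraries held a median of 9 Nts reads. The 4-week estimate of PFC Nts ran from -2.31 to -0.257 when 1 library was left out. Hypothalamic Nts was at -0.02 (-0.87 to 0.83) and 0.035 (-0.79 to 0.86). Gal at 3 h was at 0.40 (-1.56 to 2.37) in the PFC and -0.16 (-0.84 to 0.52) in the hypothalamus, and at 0.25 (-0.41 to 0.91) in the hypothalamus at 4 weeks. Tac2 was at -0.0061 (-0.44 to 0.42) and -0.17 (-0.63 to 0.28) in the PFC at 3 h and 4 weeks, and at 0.27 (-0.15 to 0.69) in the hypothalamus at 3 h.

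The members with an unadjusted p under 0.05 after psilocybin were Gal and Tac2. Gal in the PFC at 4 weeks was at -2.08 on the log2 scale (95% interval -3.59 to -0.57, adjusted p = 1 from edgeR), which became 0.70 without PFC saline 4 weeks replicate 3, the library with 296 of the Gal reads. Tac2 in the hypothalamus at 4 weeks was at 0.46 (95% interval 0.053 to 0.87, adjusted p = 0.459 from edgeR), which became 0.013 without hypothalamus psilocybin 4 weeks replicate 5. That library held 3147 Tac2 reads (116 CPM) and also had 112 CPM of summed habenula markers, against a median of 15.3 CPM in the hypothalamus. Its paraventricular and lateral hypothalamic sum was high as well, at 2629 CPM. Saline 4 weeks replicate 7 had a similar habenula sum, 118 CPM, with Tac2 at 42.9 CPM. The part of any of these cells in the difference was not tested. Among the receptors, the processing genes, the peptide-degrading enzymes and the immediate early genes (targets of recent neuronal activity), none was called after psilocybin. The receptor with the smallest p in the PFC at 3 h was Ntsr1, a neurotensin receptor (log2 difference -0.51, standard error 0.16, adjusted p = 0.453 from edgeR).

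**Figure D2:**
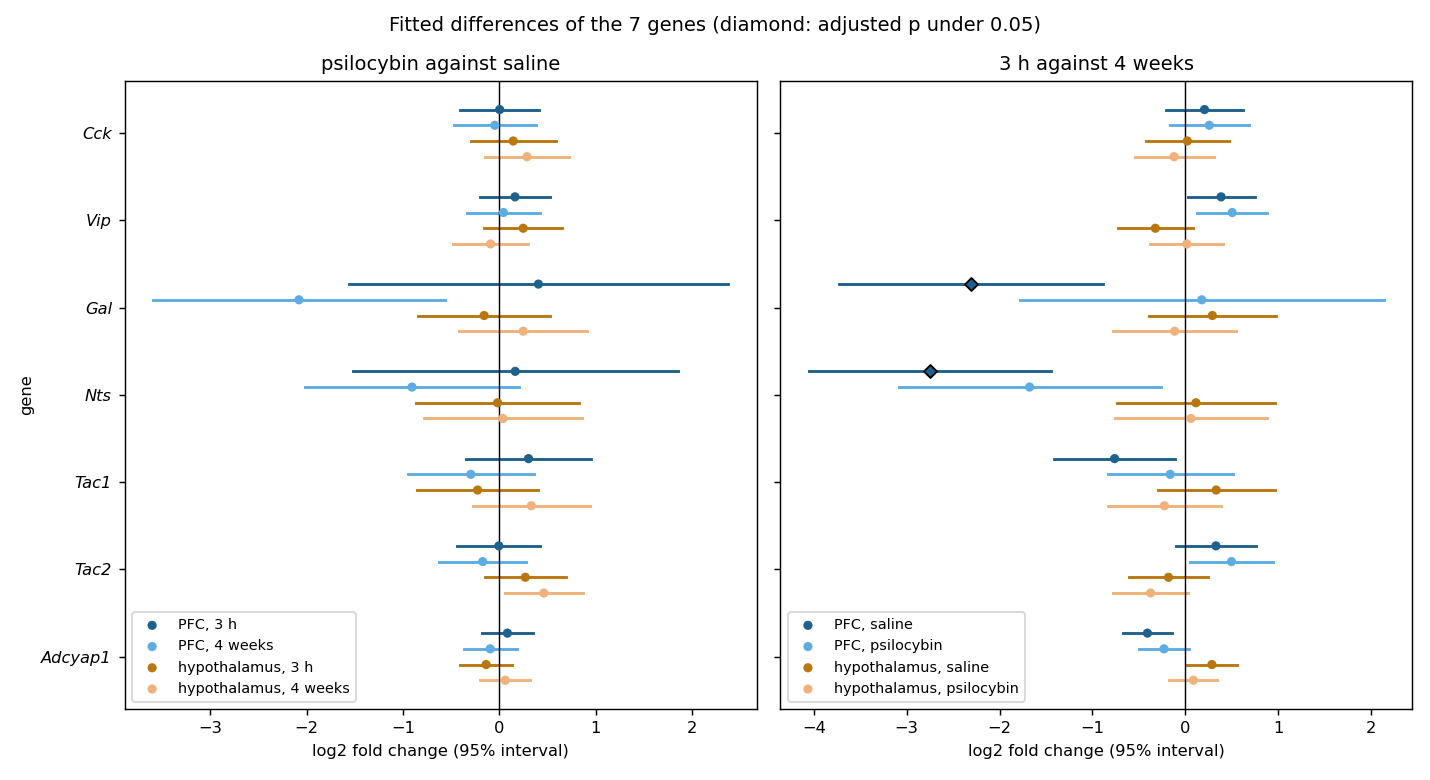
Log2 fold change with its 95% interval for each neuropeptide gene, psilocybin against saline (left) and 3 h against 4 weeks (right), by region and time or treatment. Intervals of Cck, Vip, Nts, Tac1 and Adcyap1 cross 0 in all 4 psilocybin comparisons. Those of Gal in the PFC and Tac2 in the hypothalamus at 4 weeks do not. The estimates farthest from 0 are those of Gal and Nts in the PFC.

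Harvest at 3 h was compared with harvest at 4 weeks within each region and treatment. In the PFC after saline, 2 of 7 members were called, both lower at 3 h, beside 4.72% of all genes (2.39% higher and 2.34% lower). Nts was 6.72-fold lower at 3 h (log2 difference -2.75, standard error 0.65, adjusted p = 0.00612 from edgeR), and Gal was 4.95-fold lower (log2 difference -2.31, standard error 0.71, adjusted p = 0.0448 from edgeR). Gal would not have passed the filter in the PFC alone. Both rested on the few PFC libraries of 4 weeks with high values. Nts had 356, 207 and 49 reads in saline 4 weeks replicates 3, 6 and 7, and at most 14 in each of the other 5, while the 8 saline libraries of 3 h held 0 to 14. Without replicate 3, neither gene was called, Gal turning to 0.89 (adjusted p = 0.58) and Nts to -2.07 (adjusted p = 0.0677). Without saline 4 weeks replicates 3 and 6 and psilocybin 4 weeks replicate 6, Nts was at -0.96 (adjusted p = 0.347). The summed striatum markers of replicates 6 and 7 were 1610 and 660 CPM against a PFC median of 251 CPM, and replicate 3 had the highest paraventricular and lateral hypothalamic sum of the PFC, 19.8 CPM. With the striatum and habenula levels as covariates, Nts remained called at -1.98 (adjusted p = 0.0354) and Gal did not (-2.38, adjusted p = 0.0524). With the cage as a block, only Nts was called (-2.36, adjusted p = 0.00559).

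The other members did not pass the threshold in that comparison. Adcyap1 differed by -0.41 on the log2 scale (SE 0.13, adjusted p = 0.0624 by edgeR) and was called by DESeq2 (adjusted p = 0.0444), which called Nts too but not Gal beside 5.98% of all genes, while limma-voom called none of the members and 5.98% of all genes. In a fit of only the saline PFC groups, Nts and Gal did not pass the filter on low counts. Adcyap1 was also called by edgeR when saline 3 h replicate 1, 2, 5 or 8 or saline 4 weeks replicate 6 was left out, with adjusted p from 0.0236 to 0.221 over the 16 fits that left out 1 library. In the fit without the 3 high PFC libraries, Adcyap1 was lower at 3 h by 0.51 on the log2 scale and was called (adjusted p = 0.018). Tac1 was at -0.76 (adjusted p = 0.184) and moved to -0.18 with the striatum and habenula covariates. Vip was at 0.39 (adjusted p = 0.236), Tac2 at 0.33 (adjusted p = 0.44) and Cck at 0.21 (adjusted p = 0.654).

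After psilocybin, 0 of 7 members were called between 3 h and 4 weeks in the PFC by edgeR, beside 5.96% of all genes (2.7% higher and 3.26% lower), with 3 members at an unadjusted p under 0.05 beside 20.4% of all genes. DESeq2 called 0 (7.81% of all genes) and limma-voom 1 (19.1% of all genes), which was Vip. In a fit of only the psilocybin PFC groups, Vip (adjusted p = 0.0171) and Tac2 (adjusted p = 0.0282) were called by edgeR, beside 7.85% of all genes. Vip was higher at 3 h by 0.51 on the log2 scale (SE 0.19, adjusted p = 0.0958 by edgeR and 0.00897 by limma-voom). Tac2 was at 0.50 (SE 0.23, adjusted p = 0.19 by edgeR) and Nts at -1.68 (SE 0.70, adjusted p = 0.153 by edgeR). When 1 library was left out, Nts ran from -1.94 to -0.199. Cck was at 0.26, Gal at 0.18, Tac1 at -0.16 and Adcyap1 at -0.23, with adjusted p of 0.349 or more. In the hypothalamus, edgeR called 0 members after saline (0.685% of all genes, 0.522% higher and 0.163% lower, with 1 member and 8.09% of all genes at an unadjusted p under 0.05) and 0 after psilocybin (1.16% of all genes, 0.743% higher and 0.416% lower, with 0 members and 17.4% of all genes at an unadjusted p under 0.05). DESeq2 called 0 in both (0.896% and 2.36% of all genes), and limma-voom called 2 after saline, beside 7.25% of all genes, and 0 after psilocybin, beside 3.29%. The 2 were Adcyap1 (log2 difference 0.32, adjusted p = 0.0141 from limma-voom) and Gal (0.34, adjusted p = 0.04996 from limma-voom), both higher at 3 h. In edgeR these were 0.29 (adjusted p = 0.554) and 0.29 (adjusted p = 0.962). The other members after saline were at -0.32 (Vip), -0.18 (Tac2), 0.023 (Cck), 0.12 (Nts) and 0.33 (Tac1). After psilocybin the 7 members lay between -0.37 (Tac2) and 0.088 (Adcyap1), with adjusted p of 0.328 or more.

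The other genes of the pathways were tested between the times as well. In the PFC after saline, 0 of 12 processing and granule genes, 2 of 13 receptors and 1 of 8 peptidases were called, beside 4.72% of all genes. Of the immediate early genes, 6 of 7 were higher at 3 h, beside 2.39% of all genes, among them Egr1 (2.29-fold, adjusted p = 0.000134 from edgeR), from 126 ± 40.8 CPM at 4 weeks to 283 ± 50.3 CPM at 3 h (SD, n = 8 each). After psilocybin 6 of 7 were higher as well, beside 2.7% of all genes, led by Arc (5.27-fold). In the hypothalamus, Fosb alone of the 7 was higher at 3 h, 2.58-fold after saline and 1.85-fold after psilocybin, beside 0.522% and 0.743% of all genes. Of the 13 receptors tested, Tacr1 and Cckar were lower at 3 h in the PFC after saline, beside 2.34% of all genes, and both rested on the libraries named for Nts and Gal. Tacr1 was at 1.78 ± 1.08 CPM at 3 h and 3.97 ± 3.48 CPM at 4 weeks (SD, n = 8 each, 2.11-fold, adjusted p = 0.0232 from edgeR). Its highest 4-week library was replicate 6 at 11.99 CPM, the one with 1610 CPM of striatum markers. Cckar passed the filter only through the hypothalamus, and its highest PFC library was saline 4 weeks replicate 3, with 65 reads or 0.931 CPM. Without saline 4 weeks replicates 3 and 6 and psilocybin 4 weeks replicate 6, Tacr1 was at -0.53 on the log2 scale (adjusted p = 0.368) and Cckar at -1.65 (adjusted p = 0.218), while the 6 immediate early genes were still called. Cckbr was 1.45-fold higher at 3 h in the hypothalamus after saline (9.51 ± 0.696 CPM, n = 7, against 6.46 ± 0.786 CPM, n = 8, adjusted p = 0.00432 from edgeR). Ece2, a peptidase of the endothelin-converting family, was 1.51-fold lower at 3 h in the PFC after saline (adjusted p = 0.0324 from edgeR), and was at -0.49 without those 3 libraries against -0.60 with them (adjusted p = 0.153), a change of a similar size that was no longer called.

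Differences between effects were tested directly. The psilocybin effect did not differ in any member between 3 h and 4 weeks or between the regions by the threshold used, as edgeR called 0 of 7 members and 0% of all genes in each of the 4 tests and DESeq2 and limma-voom called 0 members. DESeq2 called 0.0211% of all genes for 3 h minus 4 weeks in the PFC and 0.337% for the PFC minus the hypothalamus at 4 weeks, limma-voom called 0.00527% for 3 h minus 4 weeks in the PFC and 0.0422% for the PFC minus the hypothalamus at 3 h, and both called 0% in the remaining tests. At an unadjusted p under 0.05 there were 0, 0, 0 and 2 members, beside 3.08%, 5.27%, 2.78% and 6.69% of all genes, the 2 being Gal (-2.33) and Tac2 (-0.63) in the PFC minus the hypothalamus at 4 weeks. These are the members whose values rested on 1 library each. For the time difference after saline in the PFC minus that in the hypothalamus, edgeR called 0 members beside 0.0369% of all genes (0.0316% higher and 0.00527% lower), and 5 members had an unadjusted p under 0.05 beside 5.84% of all genes. Nts (-2.86, standard error 0.78, adjusted p = 0.268 from edgeR) and Adcyap1 (-0.69, standard error 0.19, adjusted p = 0.239 from edgeR) had the smallest p-values. DESeq2 called 0 members (0.105% of all genes) and limma-voom 1 (0.132% of all genes), Adcyap1 (-0.75, standard error 0.17, adjusted p = 0.0299 from limma-voom).

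Within groups, members varied with the markers of cell types and brain structures. Deviations of log2(CPM + 0.5) from the group and extraction pool means were correlated with the mean level of 19 gene lists (markers of cell types and brain structures, and the immediate early genes), none of which holds a member, in 133 relations per region. In the PFC 12 relations had a permutation p under 0.05 after Benjamini-Hochberg adjustment, and in the hypothalamus 14. These counts cover all 19 lists, among them lists whose results are not reported here. No relation with the immediate early genes passed in either region. The part of the dissection in these relations was not tested.

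Tac1 in the PFC followed the striatum markers (Drd1, Drd2, Adora2a and 4 others) most closely of all, with r = 0.93 and rho = 0.91 over 31 libraries (permutation p = 1e-05 for each, the smallest that 100000 resamples can give, adjusted p = 0.00133 for each). It stayed at 0.90 without the 2 libraries farthest from the median and was 0.79 in cages 1 to 4 and 0.97 in cages 5 to 8. The highest striatum sums of the PFC were 1610 CPM (saline 4 weeks replicate 6), 714 CPM (psilocybin 4 weeks replicate 6) and 678 CPM (psilocybin 3 h replicate 6), and all 7 markers were above 1 CPM on average in both regions. Nts followed the same list with r = 0.66 (permutation p = 0.00012, adjusted p = 0.00532, rho = 0.62 with permutation p = 0.00022 and adjusted p = 0.0146), 0.54 without 2 libraries, and 0.52 and 0.73 by cages, but did not pass with the cage as a block (0.50, adjusted permutation p = 0.0717). Cck ran the other way, with r = -0.66 (permutation p = 1e-04, adjusted p = 0.00532, rho = -0.60 with permutation p = 0.00073 and adjusted p = 0.0194), -0.65 without 2 libraries, and -0.34 and -0.73 by cages.

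Vip in the PFC rose with the caudal interneuron markers Adarb2, Htr3a, Calb2 and Prox1 (r = 0.54, permutation p = 0.00276, adjusted p = 0.0408, rho = 0.53 with adjusted permutation p = 0.082) and fell with the medial interneuron markers Pvalb, Sst, Lhx6 and Sox6 (r = -0.58, permutation p = 0.00082, adjusted p = 0.022, rho = -0.62 with adjusted permutation p = 0.0146). By cages 1 to 4 and 5 to 8 these were 0.68 and 0.40, and -0.54 and -0.66, and without 2 libraries 0.60 and -0.62. Its largest r was with the astrocyte markers (r = 0.60, permutation p = 0.00085, adjusted p = 0.022, rho = 0.62 with adjusted permutation p = 0.0194, 0.63 without 2 libraries), which was uneven by cages, 0.85 and 0.21. With the cage as a block, PFC Vip was at 0.78 with astrocytes and 0.76 with microglia, above its 0.58 with the caudal list, and it also passed with the thalamus, vascular and immune lists (0.54, 0.56 and 0.57). Tac2 also rose with the caudal list (r = 0.52, permutation p = 0.00115, adjusted p = 0.022, rho = 0.50 with adjusted permutation p = 0.0823, 0.48 without 2 libraries), but not with the cage as a block (0.25, adjusted permutation p = 0.447). Gal in the PFC had r = 0.75 with the paraventricular and lateral hypothalamic markers, 5 of 6 of which were under 1 CPM on average there. The value was 0.38 without 2 libraries, so that relation rested on those 2. Although counted among the 12, it is given as a description only, since Gal passed the filter only through the hypothalamus and 7 of the 31 PFC libraries held no Gal read.

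Adcyap1 in the PFC ran opposite to the arcuate markers (r = -0.49, permutation p = 0.00317, adjusted p = 0.0422, rho = -0.47 with adjusted permutation p = 0.0918, -0.31 without 2 libraries, -0.098 and -0.73 by cages). With the cage as a block it did not pass (-0.46, adjusted permutation p = 0.0745), while all 14 relations in the hypothalamus did. In the PFC, 4 of the 7 arcuate markers (Agrp, Pomc, Kiss1 and Ghrh) were under 1 CPM on average. The list thus gives no clear measure of arcuate cells there.

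In the hypothalamus the members varied with markers of several structures and cell types, some of them shared between members. Tac2 rose with the habenula markers (r = 0.65, permutation p = 0.00024, adjusted p = 0.00355, rho = 0.53 with adjusted permutation p = 0.0256), with 0.50 without 2 libraries and 0.54 and 0.68 by cages. Without hypothalamus psilocybin 4 weeks replicate 5 the value was 0.57 (adjusted permutation p = 0.0247). The libraries with the highest habenula sums included saline 4 weeks replicate 7 (118 CPM, Tac2 42.9 CPM) and psilocybin 3 h replicate 8 (114 CPM, Tac2 42.8 CPM). Psilocybin 4 weeks replicate 6 and psilocybin 3 h replicate 5 were also high in those markers, with log2 deviations of 1.69 and 1.02. Their Tac2 deviations were -0.055 and -0.24. Cck rose with the thalamus markers (r = 0.71 and rho = 0.86, permutation p = 1e-05 and adjusted p = 0.000443 for each), 0.66 without 2 libraries and 0.93 and 0.54 by cages. Cck also rose with the habenula markers (r = 0.62, permutation p = 0.00075, adjusted p = 0.00831, rho = 0.62 with adjusted permutation p = 0.0137, 0.55 without 2 libraries, 0.69 and 0.60 by cages). Vip was closest to the astrocyte markers (r = 0.79, permutation p = 1e-05, adjusted p = 0.000443, rho = 0.77 with adjusted permutation p = 0.000665, 0.71 without 2 libraries, 0.90 and 0.69 by cages). It also rose with the suprachiasmatic markers (r = 0.73 and rho = 0.75, permutation p = 1e-05 and adjusted p = 0.000443 for each), 0.85 without 2 libraries and 0.68 and 0.77 by cages, and with the arcuate markers (r = 0.69, permutation p = 7e-05, adjusted p = 0.00171, rho = 0.75, 0.81 without 2 libraries, 0.76 and 0.64 by cages). It ran opposite to Adarb2, Htr3a, Calb2 and Prox1, the markers of caudal interneurons in cortex, which summed to a median of 323 CPM in the hypothalamus against 67.9 CPM in the PFC, and whose cells of origin in the hypothalamus were not tested (r = -0.65, permutation p = 0.00035, adjusted p = 0.00465, rho = -0.56, -0.65 without 2 libraries, -0.76 and -0.54 by cages). Gal rose with the arcuate markers (r = 0.76, permutation p = 3e-05, adjusted p = 0.000997, rho = 0.69 with adjusted permutation p = 0.00106), with 0.71 without 2 libraries, but unevenly by cages, 0.39 and 0.92. It shared the suprachiasmatic list with Vip (r = 0.61, permutation p = 8e-05, adjusted p = 0.00171, rho = 0.70, 0.58 without 2 libraries, 0.53 and 0.70 by cages) and rose with the paraventricular and lateral markers (r = 0.69, permutation p = 0.00011, adjusted p = 0.00183, rho = 0.58, 0.54 without 2 libraries, 0.54 and 0.73 by cages). Tac1 again rose with the striatum markers (r = 0.72, permutation p = 9e-05, adjusted p = 0.00171, rho = 0.65 with adjusted permutation p = 0.00684, 0.59 without 2 libraries, 0.63 and 0.76 by cages). Adcyap1 rose with the ventromedial markers Nr5a1, Fezf1 and Sox14 (r = 0.56, permutation p = 0.00174, adjusted p = 0.0178, rho = 0.47 with adjusted permutation p = 0.067, 0.51 without 2 libraries, 0.66 and 0.44 by cages).

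**Figure D3:**
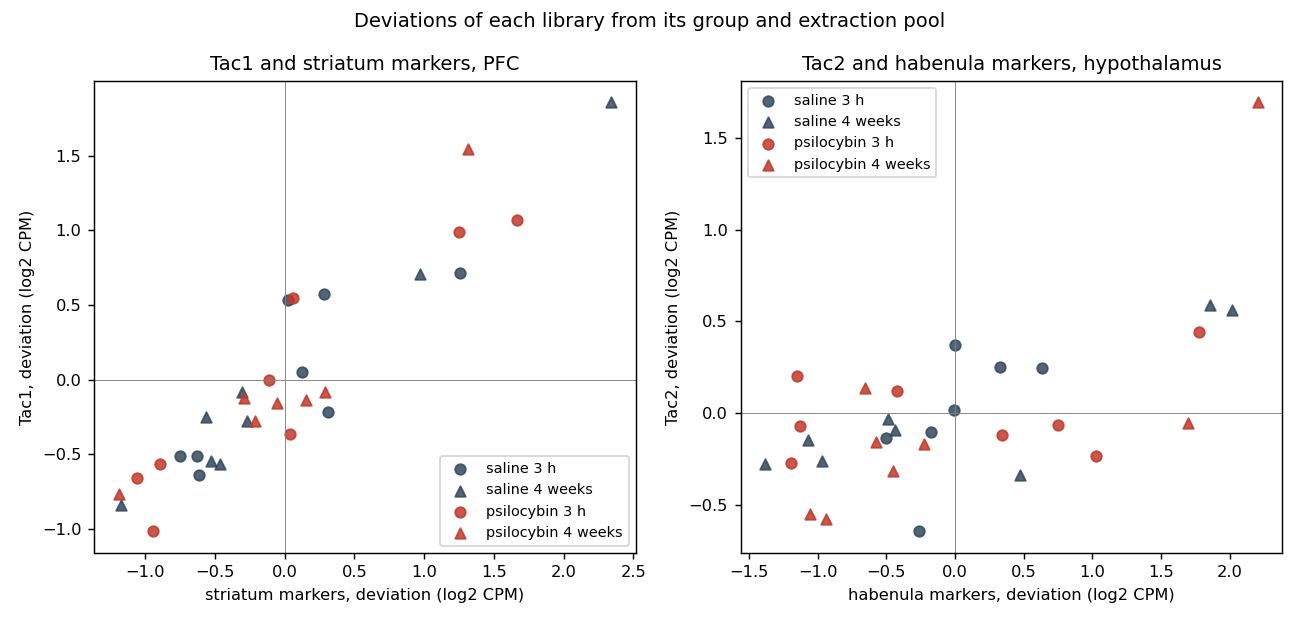
Tachykinin genes against marker levels of neighbouring structures, each point 1 library, both axes as deviations in log2 CPM from group and extraction pool means. Tac1 rises with the striatum markers in the PFC (r = 0.93), and Tac2 with the habenula markers in the hypothalamus (r = 0.65).

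**Figure D4:**
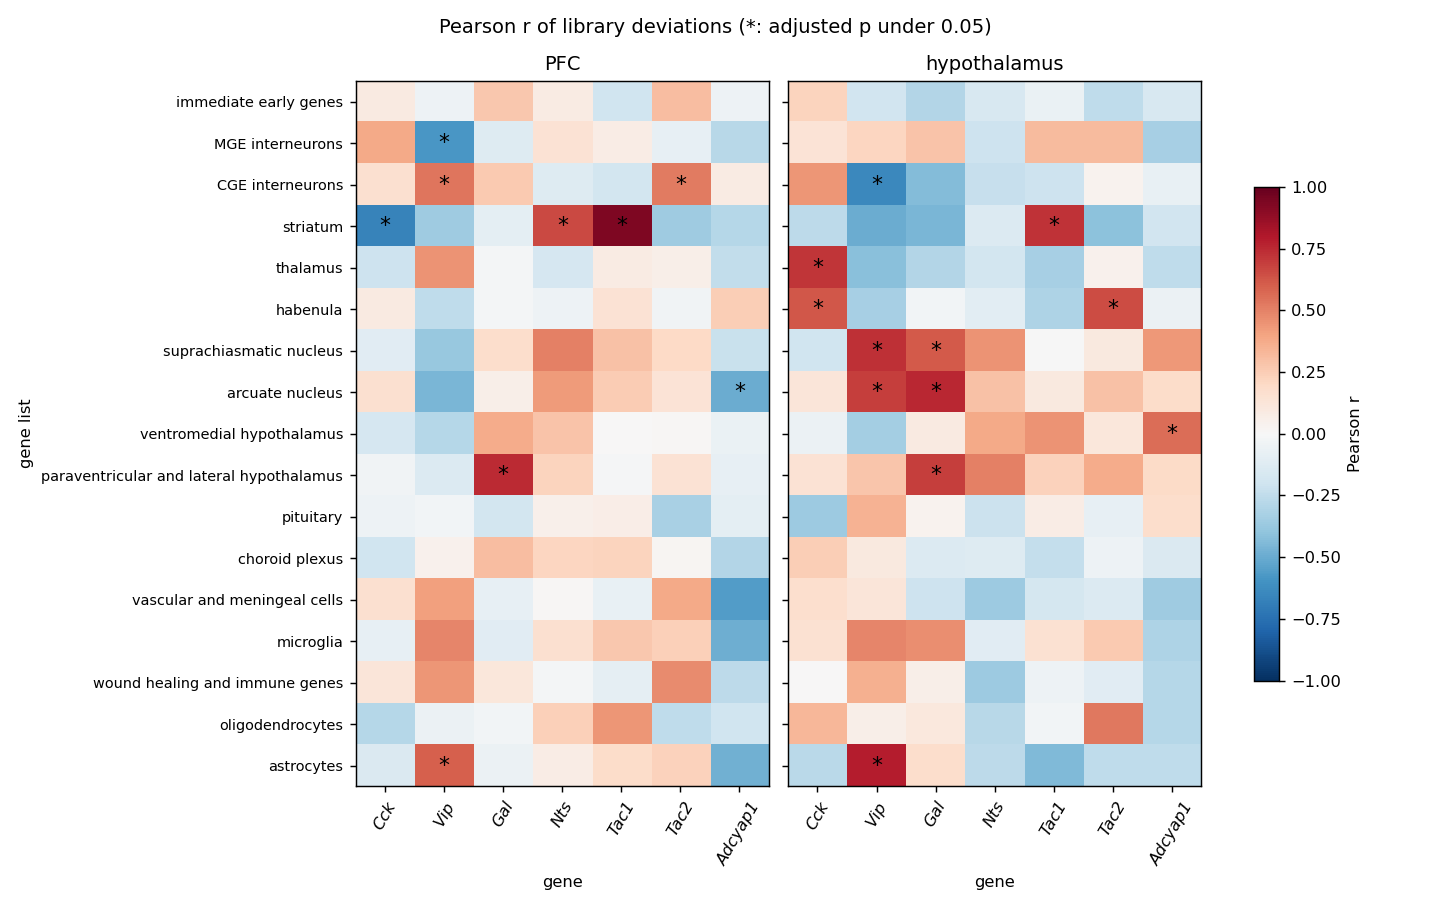
Pearson r between each neuropeptide gene and each of the gene lists shown across 31 libraries of a region, from deviations of log2(CPM + 0.5). The strongest values are Tac1 with striatum in the PFC (0.93) and Vip with astrocytes (0.79) and Gal with arcuate markers (0.76) in the hypothalamus.

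Members were also compared with each other, in 21 pairs per region. In the PFC 2 pairs passed. Tac1 and Nts rose together (r = 0.72, permutation p = 0.00012, adjusted p = 0.00189, rho = 0.60 with adjusted permutation p = 0.00598), with 0.52 without 2 libraries and 0.51 and 0.81 by cages. Tac1 and Cck ran opposite (r = -0.64, permutation p = 0.00018, adjusted p = 0.00189, rho = -0.68 with adjusted permutation p = 0.00294), with -0.67 without 2 libraries and -0.28 and -0.73 by cages. With the cage as a block neither passed (0.55 and -0.50, adjusted permutation p = 0.0601 for each). In the hypothalamus the pairs that passed were Gal with Vip (r = 0.59, permutation p = 0.00109, adjusted p = 0.0154, rho = 0.63 with adjusted permutation p = 0.00672, 0.63 without 2 libraries, 0.43 and 0.70 by cages) and Nts with Gal (r = 0.58, permutation p = 0.00147, adjusted p = 0.0154, rho = 0.47 with adjusted permutation p = 0.0819, 0.52 without 2 libraries, 0.37 and 0.65 by cages). The latter was 0.48 without hypothalamus psilocybin 4 weeks replicate 5 (adjusted permutation p = 0.0541).

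The hypothalamus and PFC of 30 mice with both libraries were compared for each member. Only Nts related between the regions, and inversely (r = -0.62, permutation p = 0.00155, adjusted p = 0.0108 over 7 relations, rho = -0.52 with adjusted permutation p = 0.0465). The value was -0.47 without 2 mice, -0.55 in the 14 mice of cages 1 to 4 and -0.66 in the 16 of cages 5 to 8, and -0.59 with the cage as a block (adjusted permutation p = 0.00497). The psilocybin mouse of cage 6 at 4 weeks, for example, was 2.72 log2 units above its group in PFC Nts and 0.49 below in the hypothalamus. The saline mouse of that cage and time had deviations of 2.37 and -0.31. The PFC libraries of these mice had 714 and 1610 CPM of striatum markers, with which PFC Nts also rose. The part of the dissection in this relation was not tested. PFC libraries held a median of 9 Nts reads. The range of hypothalamic deviations was much narrower than that of the PFC. For the other 6 members the adjusted permutation p was at least 0.65.

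**Figure D5:**
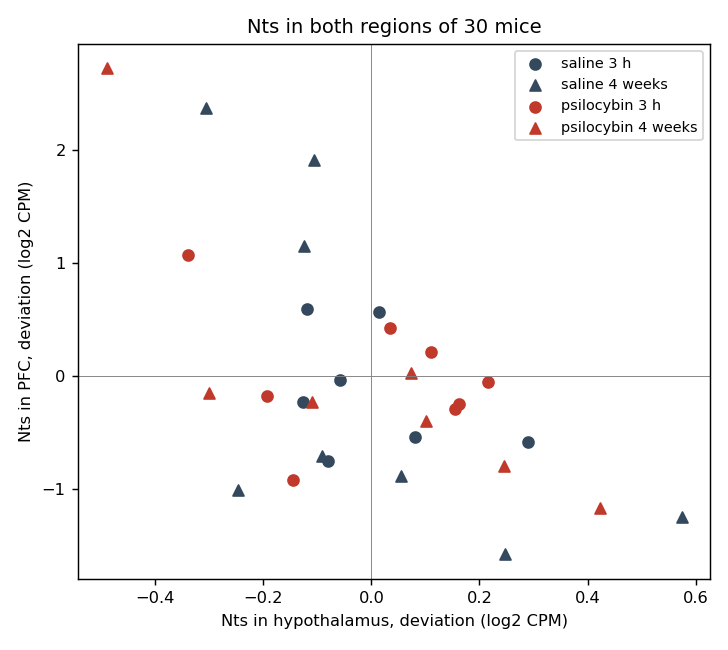
Nts in the hypothalamus (x axis) and PFC (y axis) of the same 30 mice, as deviations in log2 CPM from group and extraction pool means. Mice high in the PFC tend to lie low in the hypothalamus (r = -0.62), and the highest PFC deviation is 2.72.

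Genes whose deviations were most like those of a member, over the 31 libraries of the region where it was higher, are given as a description. For Cck in the PFC they were 1110008P14Rik, Nrgn and Calm3 (r = 0.89, 0.88 and 0.88), and for Vip in the PFC Adarb2, Egln1 and Rbbp7 (0.81, 0.80 and 0.79). In the hypothalamus they were Vat1, Gpx3 and Tmie for Gal (0.92, 0.90 and 0.90), and Trh, the thyrotropin-releasing hormone gene, Mrap2 and Cdhr2 for Nts (0.73, 0.66 and 0.66). For Tac1 they were Hpca, Itpka and Lamp5 (0.92, 0.91 and 0.88), and for Tac2 Kcnip1, Cacnb3 and Cygb (0.88, 0.88 and 0.87). Adcyap1 had weaker matches, H2-Q2, Gm26777 and Clca3a1 (0.75, 0.66 and 0.65). Without the 2 libraries farthest from the median these values lay between 0.53 and 0.89, and the libraries share depth and dissection.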

How the data were processed

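RNA of 64 samples was sequenced as stranded poly(A) libraries. Per the labels and the study's methods, the authors aligned reads with STAR 2.7.2b to GRCm38 (GENCODE annotation) and counted them per gene with featureCounts 1.6.2. The deposited values are raw read counts per gene, not normalized. The 7 members and all gene lists were chosen with earlier results of these data known.

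Libraries under 1000000 counts were left out. Genes were kept with filterByExpr (minimum count 10), counts were scaled by TMM, and all 8 groups entered 1 fit of edgeR 4.0.16 (quasi-likelihood, robust, R 4.3.3) with the extraction pool within region as covariate, Benjamini-Hochberg adjustment over 18971 genes and a threshold of 0.05. The samples within a group are separate mice. The comparisons share groups. On simulated data for psilocybin against saline in the PFC at 3 h, 56 of 100 genes changed by 0.5 and 96 of 100 changed by 1 on the log2 scale were recovered, with 9 false calls among 18820 genes. The members' own standard errors in that comparison ran from 0.13 for Adcyap1 to 0.84 for Nts and 0.98 for Gal. The recovery therefore does not carry over to Nts and Gal. No 2 libraries agreed within sampling noise (smallest chi-square per degree of freedom 3.85 over 210 pairs).

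Same-numbered samples come from 1 cage, and the 2 regions of a number and group from 1 mouse, per the labels. Deviations of same-cage samples correlated on average at 0.109 in the PFC and 0.0869 in the hypothalamus (45 pairs in each), and at -0.0458 and -0.0216 once the pool was removed. Alternatives used limma 3.58.1 (voom with sample quality weights and the mouse as random effect) and DESeq2 1.42.0, other filters, covariates and blocks, and each library left out. Relations between values used Pearson's r and Spearman's rho of deviations of log2(CPM + 0.5) and two-sided permutation tests within groups (100000 resamples, scipy 1.17.1), adjusted within each family.

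By the rule for naming genes, all members, of each pathway list and comparison the called genes (at most 3, by p) or else the gene with the smallest p, and for likeness the 3 genes with the largest r were to be named. The text departs from it in the region difference, where further receptors and enzymes were chosen after their values were seen, and in giving not every smallest-p gene. Intervals cover the spread between libraries. Protein sequences were not used here. The results of 2 gene lists are not reported here.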

Additional observations from a re-analysis of the deposited data

Results flagged for a closer look

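In groups of 7 or 8 libraries, the highest or lowest library was set apart from its group when its gap to the next one exceeded Dixon's 95% critical value. This held in 13 of 56 groups of a member, and in all 13 the library was the highest. Chance flags about 1 in 20 groups of normally distributed values, but over all genes tested 12.7% of groups were flagged, 69.7% of them for the highest library, and the groups of different members share libraries.

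In the hypothalamus, psilocybin 4 weeks replicate 5 was apart in 3 members, with Cck at 130 CPM (others 16 to 42.1), Gal at 67.4 CPM (others 23.4 to 34.4) and Tac2 at 116 CPM (others 22.8 to 34.1). Saline 4 weeks replicate 8 had Gal at 39.6 CPM (others 21.9 to 29.0), and saline 4 weeks replicate 6 had Tac1 at 76.7 CPM (others 36.7 to 54.2), beside 483 CPM of striatum markers against a median of 173 CPM.

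In the PFC, the mice of cage 6 were apart in Tac1 in 3 groups, at 26.6 CPM after saline at 3 h (others 9.25 to 16.3), 89.3 CPM after saline at 4 weeks (others 11 to 39.98) and 63.1 CPM after psilocybin at 4 weeks (others 11.8 to 20.1). Their striatum sums were 605, 1610 and 714 CPM against a median of 251 CPM, and the part of striatal cells was not tested. The same 4-week libraries had Nts at 12.3 CPM (others 0 to 5.10) and 12.1 CPM (others 0.164 to 1.13). Gal was at 4.24 CPM in saline 4 weeks replicate 3 (others 0 to 0.260) and 0.870 CPM in psilocybin 3 h replicate 8 (others 0 to 0.176). Cck was at 381 CPM in psilocybin 3 h replicate 7 (others 197 to 276).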

How the results depend on the processing

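All differences between the regions kept their direction and their call under every alternative run. Their sizes moved by over 1.5 times only for Nts and Gal. When 1 library was left out this held for Nts at 4 weeks, as given above, and for Gal (32.8-fold to 275-fold, 135-fold to 458-fold and 165-fold to 258-fold lower without PFC saline 4 weeks replicate 3, psilocybin 3 h replicate 8 and psilocybin 4 weeks replicate 7). After saline at 4 weeks, Nts was 28.5-fold lower with limma-voom, 16.7-fold with the cage and 15.3-fold with the mouse as a block and 14.7-fold with the covariates, and Gal 63.97-fold to 275-fold lower with limma-voom, either block, only the groups compared or without the 3 PFC libraries. After psilocybin at 4 weeks, Nts was 36.4-fold lower with limma-voom and 28.9-fold with the mouse block, and after saline at 3 h 114-fold with limma-voom. Gal after psilocybin was 208-fold to 299-fold lower with limma-voom or only the groups compared. For treatment and time, most log2 fold changes were near 0, so a change of sign carried no call except for Gal in the PFC after saline. Over all comparisons and alternatives other than leaving out 1 library, 1060 member values kept direction and call, 36 changed sign, 11 gained and 7 lost a call. Unless stated, the cause was not tested. The fits without hypothalamus psilocybin 4 weeks replicate 5, without 3 PFC libraries (saline 4 weeks replicates 3 and 6, psilocybin 4 weeks replicate 6) and with striatum and habenula covariates were chosen after seeing the data.

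Members called at 3 h against 4 weeks in the PFC after saline went from 2 to 1 with all 64 libraries, without a filter, with the covariates and without the 3 PFC libraries, and to 0 with limma-voom. With only the groups compared the count was 0 because Gal and Nts no longer passed the filter and 5 members were tested. After psilocybin they went from 0 to 2 with only the groups compared and to 1 with limma-voom, the covariates or without hypothalamus replicate 5. In the hypothalamus after saline they went from 0 to 2 with limma-voom, and for the time difference after saline between regions from 0 to 1. Shares of all genes called are given above for limma-voom. They are not given for all 64 libraries, no filter, the covariates, the saline groups alone, the cage block or fits without some libraries. Those counts describe the members alone. Relations with lists past the threshold in the PFC went from 12 to 5 by Spearman's rho and 19 without the pool. Pairs in the PFC went from 2 to 4 by rho and 6 with a pseudocount of 2, and in the hypothalamus from 2 to 1 by rho and without replicate 5.

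With the cage as a replicate block, members called at 3 h against 4 weeks in the PFC after saline went from 2 to 1, pairs in the PFC from 2 to 0, and list relations in the hypothalamus from 14 to 22. Signs turned under the block for Cck (0.00543, hypothalamus, time after psilocybin, and -0.00164, PFC, psilocybin at 3 h), Gal (-0.409, PFC, time after psilocybin) and Tac2 (0.00152, PFC, psilocybin at 3 h). The mouse block changed no call between regions.

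Other sign changes were as follows. For psilocybin at 3 h in the PFC, Cck was at -0.00663 without a filter, -0.0425 with limma-voom, -0.00527 without the 3 PFC libraries and -0.0125 without PFC psilocybin 3 h replicate 5, the library highest in the mean log2 level of immune genes. Tac2 was at 0.0139 with the covariates and 0.0328 with limma-voom, and Gal at -0.305 with limma-voom. For psilocybin at 4 weeks in the PFC, Cck was at 0.0502 with all 64 libraries, Tac1 at 0.0368 with the covariates, Vip at -0.00295 with limma-voom and -0.00197 without the 3 PFC libraries, and Gal at 0.842 without them. For psilocybin in the hypothalamus, the covariates gave -0.24 for Cck and -0.0764 for Tac2 at 3 h. At 4 weeks limma-voom gave -0.182 for Cck and -0.0359 for Gal, and the fit without replicate 5 gave -0.167 for Cck and -0.0361 for Nts. For time in the PFC, Gal after saline was at 0.0077 with limma-voom and 0.886 without the 3 PFC libraries, and Tac1 after psilocybin at 0.214 without them. For time in the hypothalamus after psilocybin, Vip was at -0.0214 with DESeq2, -0.00148 with the stricter filter, -0.022 with only the groups compared and -0.0179 with the covariates. Limma-voom and the fit without replicate 5 gave 0.404 and 0.353 for Cck, 0.15 and 0.117 for Gal, and 0.118 and 0.0805 for Tac2. After saline, Tac2 was at 0.138 with the covariates.

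Leaving out 1 library at a time gave 0 to 3 members called for time in the PFC after saline, with Gal at -2.53 to 0.891. For psilocybin in the PFC at 3 h, the ranges were -0.0638 to 0.0716 for Tac2, -0.106 to 0.071 for Cck, -0.117 to 0.436 for Nts, -0.0201 to 0.142 for Adcyap1 and -1.23 to 0.717 for Gal. At 4 weeks they were -2.68 to 0.699 for Gal, -0.0415 to 0.0966 for Vip, -0.724 to 0.197 for Tac1 and -0.100 to 0.00304 for Cck. In the hypothalamus Nts ranged from -0.0529 to 0.0333 at 3 h and -0.0361 to 0.142 at 4 weeks, and Cck from -0.167 to 0.395 at 4 weeks. For time in the PFC after psilocybin, Gal ranged from -1.58 to 0.819 and Tac1 from -0.358 to 0.23. For time in the hypothalamus, Cck ranged from -0.0493 to 0.116 after saline, and after psilocybin Vip from -0.0923 to 0.174, Cck from -0.224 to 0.353, Gal from -0.184 to 0.117, Tac2 from -0.46 to 0.0805 and Nts from -0.00435 to 0.131. The Gal call after saline was also lost without saline 3 h replicates 1, 2, 3, 4, 7 or 8 of the PFC, each in turn. Gal and Nts had medians of 2 and 9 reads per PFC library.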
